A study of Rattus norvegicus with 12 samples.

Results

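The start of rat chromosome 20, which holds the major histocompatibility complex (MHC), was examined in the ATAC-seq peak lists of 12 amygdala libraries. ATAC-seq marks open chromatin as stretches of DNA that a transposase can reach, and a peak is a stretch called open in 1 library. The peaks of all 12 lists were merged wherever they shared at least 1 bp, and merged regions that start between positions 1000000 and 6000000 of chromosome 20 (Rnor_6.0) were kept. This gave 395 of the 118874 merged regions of the genome. The 2 groups were adult male rats of the Sprague Dawley strain, labelled wild type: 6 Control animals injected with saline and 6 Ethanol animals injected with 1 g/kg ethanol, both by the intraperitoneal route and both killed 1 h later. Each library came from the amygdala of 1 animal with all of its cell types together, so that a change in openness and a change in the mix of cells cannot be told apart.

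The MHC is a dense cluster of genes for immune recognition that is called RT1 in the rat. Class I genes encode cell surface proteins that show peptides from inside the cell to T cells, and in the rat they occur as many similar copies. In the gene order placed below on Rnor_6.0, some copies lie among genes of the class III block. Class III genes have mixed functions, among them complement proteins, chaperones, RNA helicases and chromatin enzymes, and many of them are used by nearly every cell. Class I molecules are also made by neurons and glia, where they are known for roles in synapse remodelling.

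Gene starts could be set beside the peaks for a block from 4.32 to 5.08 Mb, from C4b to Abhd16a. They were placed from the distances that the study's peak annotation, available only in part, gives from 3 listed peaks to nearby genes. Of 48 genes so annotated, 37 were placed. Promoter sequences are shown for 5 of them because they stand for the classes of the block. RT1-CE5, RT1-CE4 and RT1-CE3 are class I genes with a peak within 2 kb of the start in all 12 libraries. Ehmt2, a histone methyltransferase gene of class III, also had a peak within 2 kb of its start in all 12. C4b, a complement gene, had no peak within 2 kb of its start in any library. The sequences are from RefSeq (GRCr8), run 5′ to 3′ on the gene's own strand from 250 bases before to 50 after the start, and their coordinates are not those of the peaks. They lie at chr20:3484041-3484340 (minus strand), chr20:3509107-3509406 (minus), chr20:3525109-3525408 (minus), chr20:3940661-3940960 (minus) and chr20:4201729-4202028 (plus). Capitals mark 3 short motifs on either strand: the letters CCAAT of the CCAAT box, the letters GGGCGG of the GC box and the letters TATAAA of the TATA box.
RT1-CE5: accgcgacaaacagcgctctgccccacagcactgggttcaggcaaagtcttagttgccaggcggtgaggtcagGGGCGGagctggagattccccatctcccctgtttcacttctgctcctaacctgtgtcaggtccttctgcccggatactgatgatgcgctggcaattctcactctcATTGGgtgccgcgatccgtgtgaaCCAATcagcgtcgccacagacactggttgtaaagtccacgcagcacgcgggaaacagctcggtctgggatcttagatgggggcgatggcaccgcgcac
RT1-CE4: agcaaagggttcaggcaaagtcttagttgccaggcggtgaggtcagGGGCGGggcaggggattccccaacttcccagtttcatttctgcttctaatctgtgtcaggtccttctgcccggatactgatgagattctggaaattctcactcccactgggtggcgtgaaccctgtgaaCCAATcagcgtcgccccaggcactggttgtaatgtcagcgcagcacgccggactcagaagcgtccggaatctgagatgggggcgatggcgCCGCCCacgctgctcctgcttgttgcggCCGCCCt
RT1-CE3: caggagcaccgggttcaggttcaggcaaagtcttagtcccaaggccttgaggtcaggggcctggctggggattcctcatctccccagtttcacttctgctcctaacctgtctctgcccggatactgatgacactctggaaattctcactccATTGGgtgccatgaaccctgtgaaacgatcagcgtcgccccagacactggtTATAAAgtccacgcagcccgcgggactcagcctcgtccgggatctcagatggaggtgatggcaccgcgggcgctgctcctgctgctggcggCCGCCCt
Ehmt2: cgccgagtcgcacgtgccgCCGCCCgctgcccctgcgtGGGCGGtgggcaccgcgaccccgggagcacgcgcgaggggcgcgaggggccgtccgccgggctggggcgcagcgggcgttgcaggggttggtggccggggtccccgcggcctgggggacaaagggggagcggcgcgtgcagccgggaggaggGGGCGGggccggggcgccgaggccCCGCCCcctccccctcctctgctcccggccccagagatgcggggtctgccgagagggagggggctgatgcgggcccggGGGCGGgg
C4b: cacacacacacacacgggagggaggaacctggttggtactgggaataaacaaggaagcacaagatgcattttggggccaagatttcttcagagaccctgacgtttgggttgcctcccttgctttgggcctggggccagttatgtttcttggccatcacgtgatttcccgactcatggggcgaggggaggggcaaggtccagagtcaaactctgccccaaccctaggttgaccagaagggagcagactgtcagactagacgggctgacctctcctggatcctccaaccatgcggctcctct

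The promoters of the 3 class I genes were alike, with 84.8% to 87.2% of aligned bases identical in each pair. CCAAT, in 37.5% of 33469 rat promoters of this length, was found in all 3, in RT1-CE5 once on each strand. The GC box letters, in 33.1% of promoters, were found in each of the 3 as well. TATAAA, in 14.2% of promoters, was found in RT1-CE3. The GC box letters stood 5 times in Ehmt2, whose promoter was 82.7% G and C with 41 CpG sites. C4b held none of the 3 motifs, at 56.0% G and C and 7 CpG sites, beside medians of 51.7% and 7 over all promoters. A match is a description of the letters and does not show that a factor binds there.

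The lists held 50370 to 75847 peaks per library and covered 75.6 to 134.6 Mb of the genome, most in Ethanol 6 and Control 6. The numbers in the peak names skip, so each list is a selection from a longer one, and how it was made is not given in the sources used here. All peak counts, densities and shares of libraries rest on that selection. The number of reads behind each list is unknown. Over the stretch, 302 to 385 peaks were called per library.

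Open chromatin was denser at the start of chromosome 20 than over the rest of the chromosome, and a larger share of its merged regions held a peak in every library. Merging chains peaks that overlap in turn, so peaks of different libraries can share a region without touching. Merged width and support can therefore rise where peaks are dense and wide, which was not tested. Merged regions numbered 79.0 per Mb against 52.5 per Mb over the other 51.11 Mb, where 2681 regions lay. They took up 24.98% of the stretch and 9.57% of the rest. The median merged region was 1524 bp wide in the stretch and 1120 bp in the rest, and the median gap between regions was 2144 against 3691 bp. Regions over 10 kb were 23 of 395 (5.82%) and held 37.2% of the merged length, while in the rest 34 regions (1.27%) held 10.8%. No region crossed the bounds of the stretch, since the regions next to them were 590089–590597 and 1050083–1050349 at the lower end, and 5996677–5997021 and 6011534–6012255 at the upper end.

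Each library showed the difference in its own peaks. Peak density was 69.4 ± 5.31 peaks per Mb in the stretch (SD, 12 libraries) and 26.3 ± 4.25 in the rest, a 2.66-fold difference that ranged from 2.18 to 3.17 between libraries. The length in peaks was 144 ± 19.1 kb per Mb against 39.8 ± 8.95 kb per Mb, or 3.68-fold, with a range of 3.13 to 4.27. The median peak width was 261 ± 61.0 bp greater in the stretch, at 1431.5 ± 132 bp against 1170 ± 96.8 bp. Both density and width were higher in the stretch in 12 of 12 libraries. For each of these measures the two-sided exact sign-flip permutation test over the libraries gave p = 0.000488, the smallest p that 12 libraries allow (adjusted p = 0.00061 over 5 measures). This p speaks to how well the difference repeated between libraries, and not to how the stretch compares with other stretches of the genome. For density and length, the values of the stretch and of the rest did not overlap in any pair of libraries.

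**Figure D1:**
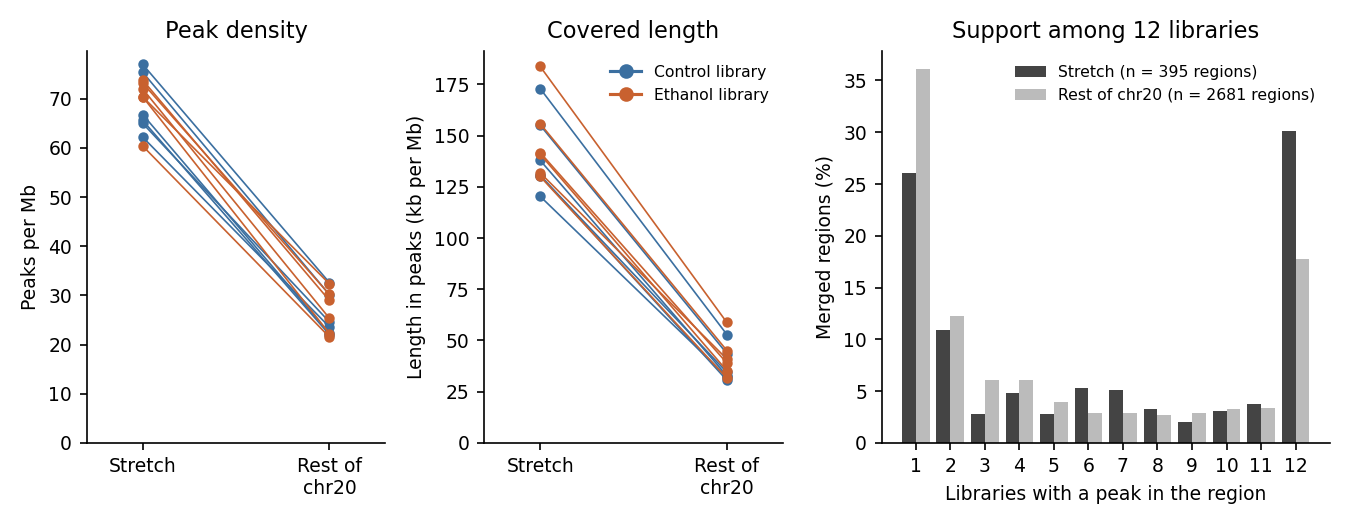
Peaks per Mb and length in peaks (kb per Mb) in each of 12 libraries (left and middle, a line joins the values of 1 library) for the start of chromosome 20 and the rest of it, and the percent of merged regions by the number of libraries with a peak (right). All 12 lines fall from the stretch to the rest, and 30.1% of the regions in the stretch against 17.7% in the rest had a peak in 12 libraries.

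Much of this density was shared with the sequence that follows. From 6 to 11 Mb there were 112.2 merged regions per Mb, more than in the stretch, and they took up 26.2% of the length. In single libraries the peak density of the stretch was 1.08-fold that of these 5 Mb (64.8 ± 9.95 peaks per Mb, exact sign-flip p = 0.0225, higher in 9 of 12 libraries). The length in peaks was 1.32-fold greater in the stretch in 12 of 12 libraries (exact sign-flip p = 0.000488). Peaks were also wider in the stretch by 98.6 ± 96.9 bp (exact sign-flip p = 0.00488, 10 of 12 libraries). Among 562 stretches of 5 Mb cut along the chromosomes in the same way, the start of chromosome 20 was number 6 by its length in peaks per Mb of library total, at 7892 bp against a median of 1115 bp. Its place lay between 3 and 8 in every library.

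Support among the libraries was higher than in the rest of the chromosome when counted by merged regions, which chain overlapping peaks. A peak was present in all 12 libraries for 119 regions (30.1%), beside 17.7% in the rest and 19.3% from 6 to 11 Mb. Regions seen in 1 library were 103 (26.1%), beside 36.1% and 36.2%. The regions in all 12 had a median width of 4428 bp and those in 1 library of 634 bp. Of the peaks of a library, 72.3 ± 6.02% lay in regions of all 12 in the stretch and 51.9 ± 7.28% in the rest, a difference of 20.4 ± 3.85 percentage points that was present in 12 of 12 libraries (exact sign-flip p = 0.000488, adjusted p = 0.00061). Against the 5 Mb that follow, the difference was 12.9 percentage points (exact sign-flip p = 0.000488, 12 of 12). A region of all 12 is defined from these same libraries and counts for each of them at once. The 12 differences are therefore not independent, and these p-values cannot weigh the difference in support. Control 6 gave 20 of the 103 regions of a single library and Ethanol 6 gave 13, and these were the libraries with the most covered length. Control 4 gave the fewest, with 2.

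Open chromatin was not spread evenly over the stretch. Only 17 of the 395 regions lay between 1 and 2 Mb and 52 between 2 and 3 Mb, while 110, 99 and 117 lay in the 3 windows that follow. In bins of 100 kb, 6 of 50 bins held no peak in any library and the median bin held 10.2 kb in peaks, beside 1.10 kb in the bins of the rest of the chromosome. The fullest bin, from 5.4 to 5.5 Mb, held 51.6 kb on average and between 38023 bp in Control 1 and 62754 bp in Ethanol 6. It was followed by the bin from 3.3 to 3.4 Mb with 46.4 kb and the bin from 4.3 to 4.4 Mb with 44.7 kb. Between the latter bins, the bin from 4.2 to 4.3 Mb was empty in all 12 libraries.

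**Figure D2:**
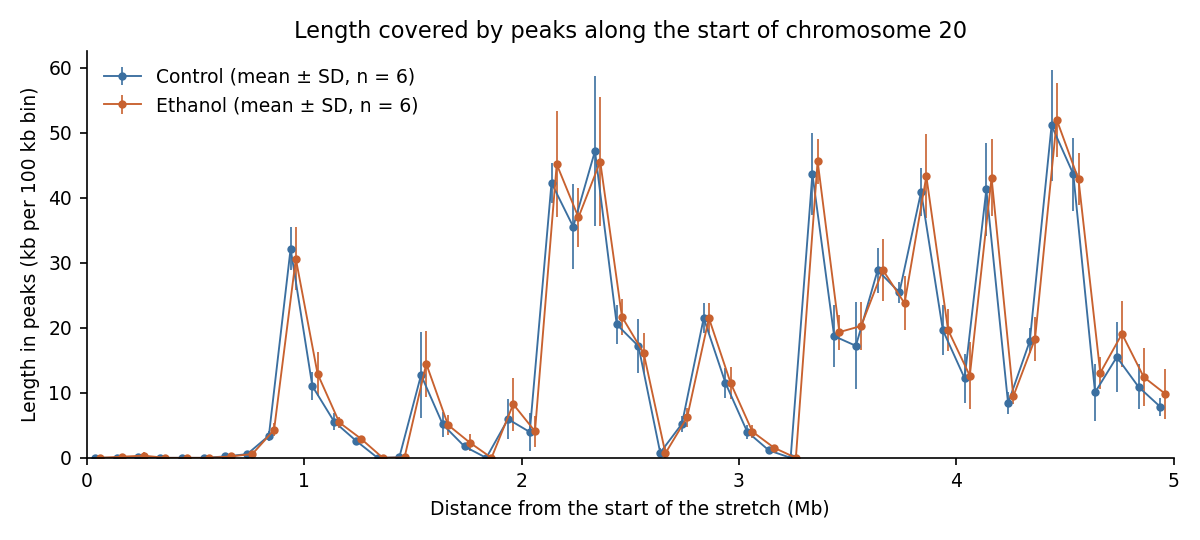
Length in peaks (kb) in each 100 kb bin against the distance of the bin from the start of the stretch (Mb). Points and bars are the mean ± SD of 6 Control and 6 Ethanol libraries, and the 2 lines run together from the near empty first bins to the fullest bin at 51.6 kb.

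The widest region was 3328173–3369830, which joined 41658 bp. Its length in peaks averaged 30674 ± 5104 bp over Control and 30875 ± 3792 bp over Ethanol libraries, from 21213 bp in Control 3 to 36658 bp in Control 6. No gene was placed in it. The next, 4345718–4386581, joined 40864 bp and held 32897 ± 3601 bp over Control and 34093 ± 2791 bp over Ethanol libraries. The starts of 6 class III genes lay in it: Gpsm3, a regulator of G protein signalling, Pbx2, a homeobox transcription factor, Ager, the receptor for advanced glycation end products, Rnf5, a ubiquitin ligase, Agpat1, an enzyme of phospholipid synthesis, and Egfl8. The window of 2 kb on each side of the Pbx2 start was covered whole, at 4001 bp, in each of the 12 libraries, whereas that of Ager was covered over 1580 to 3860 bp. The region 4799494–4829123 joined 29630 bp and held 26614 ± 1766 bp over Control and 27261 ± 2224 bp over Ethanol libraries. Ddx39b, an RNA helicase used in splicing, Nfkbil1, and Atp6v1g2, a subunit of the vacuolar proton pump, start in it. These 3 regions also had the greatest length in peaks summed over the libraries.

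Of the 37 gene starts, 33 lay in a merged region and 27 in a region of all 12 libraries. The 4 starts outside a region were those of C4b, Ly6g6e, LOC108353247 and LOC108349032. No gene of the class II, antigen processing or extended class I brain lists was placed. Since the study's peak annotation was available only in part, the genes are those that happen to lie near its listed peaks.

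All 6 class I genes that were placed had their start in a region of all 12 libraries. Within 2 kb of the start, the length in peaks of RT1-CE2 was 2930 to 3573 bp in Control and 2979 to 3613 bp in Ethanol libraries. RT1-CE3 had the shortest, 982 to 1203 bp in Control and 1077 to 1143 bp in Ethanol. RT1-CE7 varied least for its size, from 2534 to 2690 bp over the 12 libraries. RT1-CE4 varied most, from 2162 bp in Ethanol 3 to 4001 bp in Control 5 and Ethanol 6. The groups overlapped at each of the 6 starts. Class I copies are similar in sequence, and how reads that map to several copies were treated is not given in the sources used here, so a peak at one copy may hold reads of another.

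Among the 23 class III genes outside the smaller lists, 22 starts lay in a region and 17 in a region of all 12. Ehmt2 and Zbtb12, a zinc finger gene, shared the region 4569459–4579472, with 2747 to 3770 bp in peaks around the Ehmt2 start. Neu1, the lysosomal sialidase gene, had 1420 to 2788 bp around its start in the region 4610057–4612901. Lsm2, which encodes a protein of the spliceosome, had 837 to 1519 bp in 4965606–4967915. A peak lay within 2 kb of the start of Notch4, a receptor of the Notch family, in 4 libraries, Control 2 and Ethanol 3, 4 and 6. The start of Clic1, a chloride channel gene, had a peak as near in 3 libraries, Control 4, Control 6 and Ethanol 6. Ly6g6e, like C4b, had no peak within 2 kb in any library.

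The heat shock genes Hspa1a and Hspa1l, which encode chaperones, start in 1 shared region, 4876597–4881405. Around the Hspa1a start the length in peaks ran from 1402 to 3017 bp in Control and from 1457 to 3293 bp in Ethanol libraries. The ranges of the groups overlapped over most of their length.

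**Figure D3:**
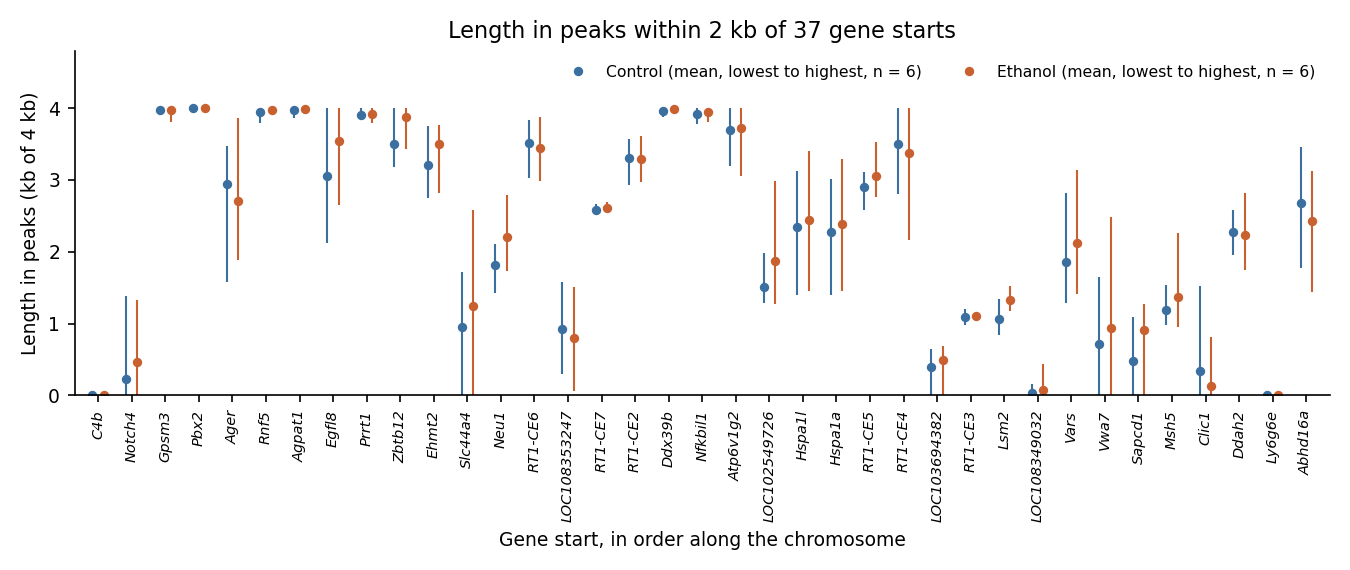
Length in peaks (kb) within 2 kb of each of 37 gene starts, in their order along the chromosome. Points are the means of 6 Control and 6 Ethanol libraries and lines run from the lowest to the highest library, which overlap between the groups at every start with a peak; C4b and Ly6g6e are at 0 in all 12.

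The question whether ethanol changed the openness of the MHC stretch within 1 h was asked first of its total. For each Mb that a library covered in the whole genome, the stretch held 8101 ± 491 bp in Control and 7683 ± 676 bp in Ethanol libraries (SD, n = 6 each, exact permutation p = 0.249, adjusted p = 0.736 over 4 measures). The Control values had their lowest at 7361, median at 8003 and highest at 8695 bp per Mb, and the Ethanol values at 6828, 7622 and 8464. The groups overlapped, with 3 of 6 Ethanol libraries, numbers 1, 4 and 6, below all Control libraries. Ethanol 6, the lowest, was also the library with the most covered length in all. Peaks in the stretch were 5.83 ± 0.37 per 1000 peaks in Control and 5.68 ± 0.69 in Ethanol (exact permutation p = 0.652). The median peak width was 1420 ± 61.8 and 1443 ± 186 bp (exact permutation p = 0.788). The log2 ratio of the length in peaks per Mb in the stretch to that in the rest of the chromosome was 1.92 ± 0.15 in Control and 1.84 ± 0.16 in Ethanol (exact permutation p = 0.368). None of the 4 measures passed the threshold of 0.05, and the sign of the difference turned for the number of peaks without Ethanol 6 (0.0564 per 1000) and for the width without Ethanol 5 (-23.0 bp) or Ethanol 6 (-15.6 bp). Leaving out each library in turn, the difference in length of -417 bp per Mb ran from -573 (without Ethanol 5) to -246 (without Ethanol 6), and that in the log2 ratio of -0.08 from -0.13 (without Control 6) to -0.04 (without Ethanol 6). Without division by the library total the stretch held 706148 ± 96884 bp in Control and 736788 ± 100302 bp in Ethanol, so the sign of the difference turned with the scale.

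**Figure D4:**
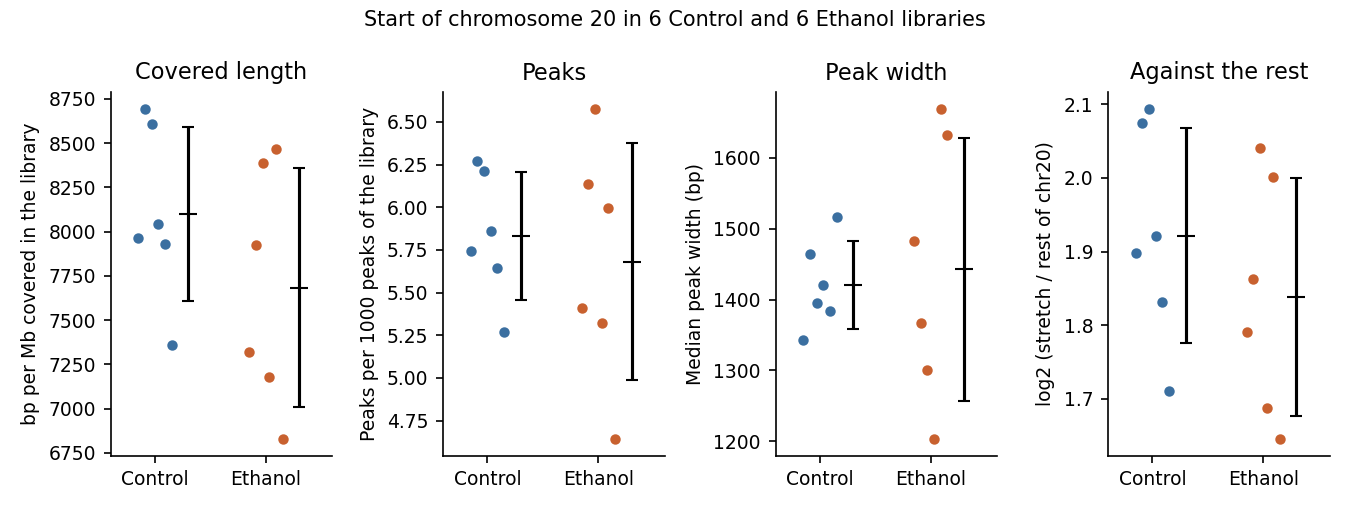
Length in peaks (bp per Mb covered in the library), peaks per 1000 peaks of the library, median peak width (bp) and log2 ratio of the stretch to the rest of chromosome 20, by library. Dots are 6 Control and 6 Ethanol libraries and bars the mean ± SD; the groups overlap in all 4 panels, and the axes do not start at 0.

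Spread between animals was wider in Ethanol for the number and width of peaks, but was not tested. The coefficient of variation was 6.06% in Control and 8.80% in Ethanol for the length in peaks, 6.42% and 12.2% for the number of peaks, and 4.35% and 12.9% for the median width. For the rest of chromosome 20 the length in peaks varied by 4.25% and 3.13%. That total runs over 2681 regions, beside 395 in the stretch, and a total over more regions can vary less for that alone. The median peak width of the rest ran from 1092 to 1256.5 bp in Control and from 1038 to 1359 bp in Ethanol. A wider range of width in Ethanol was thus not particular to the stretch.

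No window of 1 Mb passed the threshold. From 1 to 2 Mb, the length in peaks was 423 ± 51.8 bp per Mb of library in Control and 379 ± 38.9 in Ethanol (exact permutation p = 0.132, adjusted p = 0.458 over 5 windows). From 2 to 3 Mb, Control libraries had 513 ± 106 and Ethanol libraries 534 ± 84.6 (exact permutation p = 0.706), and the sign turned without Control 4 (-0.149) or Control 5 (-6.95). The windows from 3 to 4, 4 to 5 and 5 to 6 Mb had 2365 ± 203 against 2188 ± 248, 2297 ± 213 against 2160 ± 212, and 2502 ± 186 against 2422 ± 202 in Control and Ethanol (exact permutation p = 0.208, 0.275 and 0.494). Single libraries moved these differences: leaving out each in turn, that of -177 ran from -243 (without Ethanol 5) to -114 (without Ethanol 1), that of -138 from -194 (without Ethanol 3) to -73.6 (without Control 3), and that of -79.7 from -129 (without Control 1) to -24.2 (without Ethanol 6).

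Single regions were compared by the number of libraries with a peak. Of the 292 regions that at least 2 libraries shared, 0 had a Fisher's exact p under 0.05 before adjustment, beside 0.192% of the 77224 regions tested over the genome, and 0 after it, beside 0.00%. Over the genome, 0.148% passed before adjustment with more Ethanol libraries and 0.0440% with more Control libraries. The smallest p that Fisher's exact test allows with these group sizes is 0.00216. Over 77224 regions, that p passes adjustment only if a far larger share than 0.192% reaches it. The 0 after adjustment was thus close to fixed by the design, and no conclusion is drawn from it. More Ethanol than Control libraries had the peak for 62 regions (21.2%, beside 30.0% over the genome) and fewer for 52 (17.8%, beside 21.1%). A difference of at least 4 libraries was found for 2 regions (0.685%, beside 1.26%). The count under 0.05 was 2 without Ethanol 2 and 1 without Control 6 or without Ethanol 4. No region had a peak in all libraries of one group and in none of the other. The smallest p was at 1860935–1861999, with a peak of 682 to 1065 bp in Ethanol 1, 3, 5 and 6 and in no Control library (Fisher's exact p = 0.0606, adjusted p = 1). The region 4829177–4833355, which begins just past the region of Ddx39b, had a peak in 5 Ethanol libraries and in 1 Control library (Fisher's exact p = 0.0801). At 5951115–5951954 a peak was found in Ethanol 2, 4 and 6 and in no Control library (Fisher's exact p = 0.182). In the other direction, 3372479–3373155 had a peak in Control 2, 3 and 4 only (Fisher's exact p = 0.182). A peak at 4958709–4959448 was in 6 Control and 3 Ethanol libraries (Fisher's exact p = 0.182), and one at 3313198–3314660 in 4 and 1 (Fisher's exact p = 0.242).

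Regions present in all 12 libraries were compared by their length in peaks on the log2 scale with limma. Of the 119 tested, 3 (2.52%) had an unadjusted p under 0.05, beside 5.18% of 21640 over the genome, and 0 passed after adjustment, beside 0.00%. The count of 3 was 7 without Ethanol 4, and 1 without Control 1, Ethanol 3 or Ethanol 5. The median difference was -0.01 for the stretch and for the whole genome alike, and 55 regions (46.2%) were wider in Ethanol, beside 47.3%. For 0 of the 119 did the groups lie apart without overlap, beside 0.162%. All 3 were wider in Ethanol (2.52%, beside 2.95%), none was narrower (0.00%, beside 2.22%), and their adjusted p by limma was 0.938. The differences of the 119 regions ran from -0.47 to 1.11.

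The region with the smallest p was 5755730–5760254. Its length in peaks in Control 1 to 6 was 656, 4227, 378, 754, 2280 and 2140 bp, and in Ethanol 1 to 6 it was 3851, 1678, 2726, 2049, 4275 and 3333 bp. Control 1, 3 and 4 were lower than every other library, and the other 3 Control libraries lay within the Ethanol range. The log2 difference was 1.11 ± 0.48 (SE).

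At 5605229–5611953 the lengths were 2491, 4509, 2491, 3583, 4237 and 4179 bp in Control and 6332, 3990, 4042, 4045, 4056 and 6661 bp in Ethanol, a log2 difference of 0.38 ± 0.17 (SE). Ethanol 1 and 6 stood above all others and Control 1 and 3 below. At 3413082–3415764 Control libraries averaged 1439 ± 446 bp and Ethanol libraries 1972 ± 383 bp, a log2 difference of 0.43 ± 0.19 (SE). The smallest p in the other direction were at 4629993–4634621 (3024 ± 776 bp in Control, 2326 ± 795 bp in Ethanol, log2 difference -0.47 ± 0.22 SE), 5508048–5510417 (1700 ± 361 and 1404 ± 275 bp, -0.34 ± 0.17) and 4886877–4888246 (1205 ± 99.9 and 1050 ± 166 bp, -0.27 ± 0.14). Their adjusted p by limma were 0.966, 0.976 and 0.976. The difference at 4629993–4634621 turned to 0.062 when only the better scored 50% of each list was used.

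The last of these regions overlaps a peak of the study's annotation, as do 4479954–4481826, with a peak in 5 Control and 5 Ethanol libraries, and 4767243–4768014, seen in Control 3 alone. These peaks come from the study's annotation of the same animals, so their direction is no independent evidence.

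By gene class, no region at a gene start passed the test. Of the 18 regions of all 12 libraries that hold a start, 0 had a limma p under 0.05 before adjustment, beside 5.18% over the genome. In Ethanol 7 were wider, beside 47.3% of regions over the genome, and 11 narrower, and the log2 differences ran from -0.25 to 0.27. The 6 class I regions had a median of -0.07, with 1 wider and 5 narrower. RT1-CE4 was at -0.22 ± 0.19 (SE) and RT1-CE5 at 0.04 ± 0.14. Of the 10 class III regions outside the smaller lists, 5 were wider and 5 narrower, from -0.25 ± 0.19 at Abhd16a, a lipase gene, to 0.27 ± 0.14 at Lsm2. The heat shock region was at -0.07 ± 0.26.

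Variation between animals of 1 group was then compared with the rest of the chromosome. The mean absolute deviation of log2 length in peaks from the group median, over regions of all 12 libraries, was 0.238 ± 0.0207 in the stretch and 0.253 ± 0.0176 in the rest (12 libraries, lower in the stretch in 8 of 12, exact sign-flip p = 0.0312, adjusted p = 0.0312). This difference of -0.0156 did not hold up: it was 0.0064 (exact sign-flip p = 0.419) with the better scored 50% of peaks, and without Control 1, Control 5, Ethanol 2 or Ethanol 4 the exact sign-flip p was 0.0742, 0.082, 0.0859 and 0.0654. The median within-group SD was 0.29 on the log2 scale for the 119 regions of the stretch, beside 0.31 for 475 in the rest and 0.31 over the genome. The most even regions of the stretch were 3165675–3182122 (SD 0.10), 4345718–4386581 (0.11) and 4799494–4829123 (0.11), of which the latter 2 are the wide class III regions described above.

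A few regions varied far more. An SD above 0.8 was found for 6 of 119 regions (5.04%), beside 2.53% in the rest of the chromosome and 1.93% over the genome, values that are given as a description. The largest was 1.26 at 2593177–2600037. There the length in peaks was 1065, 3682, 5772, 2672, 927 and 6356 bp in Control 1 to 6 and 4266, 4920, 4833, 444, 4012 and 4230 bp in Ethanol 1 to 6. Ethanol 4, Control 5 and Control 1 were low, and the group means of 3412 ± 2304 bp in Control and 3784 ± 1675 bp in Ethanol differed by less than the SD of either. Without Ethanol 4 the SD was 0.84. The next largest, 1.00 at 5431021–5435737, had 4553 bp in Ethanol 6 and 3118 bp in Control 5 against 509 bp in Control 4. At 3134491–3140929 (SD 0.99, and 0.51 without Ethanol 4) the range was 526 bp in Ethanol 4 to 5420 bp in Ethanol 6.

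In some of these regions the libraries fell into a low and a high set. Among the regions that at least 11 libraries shared, neighbours in the order of the libraries were at least 2-fold apart, with 2 or more libraries on each side, in 6 of 134 (4.48%) in the stretch and in 11 of 564 (1.95%) in the rest. This criterion was chosen after the values were seen and no test was made of it.

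The clearest case was a pair of neighbours. At 3144099–3158580, Control 6, Ethanol 1 and Ethanol 2 had 2703, 3505 and 3945 bp, and the other 9 libraries 9015 to 13151 bp. At 3158761–3165212 the same 3 libraries had 1175, 1303 and 1616 bp, and the others 3417 to 5641 bp. The region that comes next, 3165675–3182122, did not divide them: it held 13200, 13513 and 12118 bp in these 3 and 9833 to 15407 bp over all 12, and was the most even of the stretch. Control 6 had the second greatest covered length of all libraries, and Ethanol 1 the next.

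Another pair lay upstream. At 2581784–2590196, Ethanol 4 had no peak, Control 4 had 538 bp and Control 5 had 1335 bp, while the other 9 libraries had 4125 to 7776 bp. Its neighbour 2593177–2600037, described above, was low in Ethanol 4 and Control 5 as well, but in Control 1 and not in Control 4. The low sets of the remaining 2 cases were Control 1, 3 and 4 at 5755730–5760254, and Ethanol 2 and 4 at 5332756–5334708, with 0 and 313 bp against 875 to 1923 bp. Both groups had members in the low set of the 4 regions that form pairs, and the sets differed from one place to the next.

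**Figure D5:**
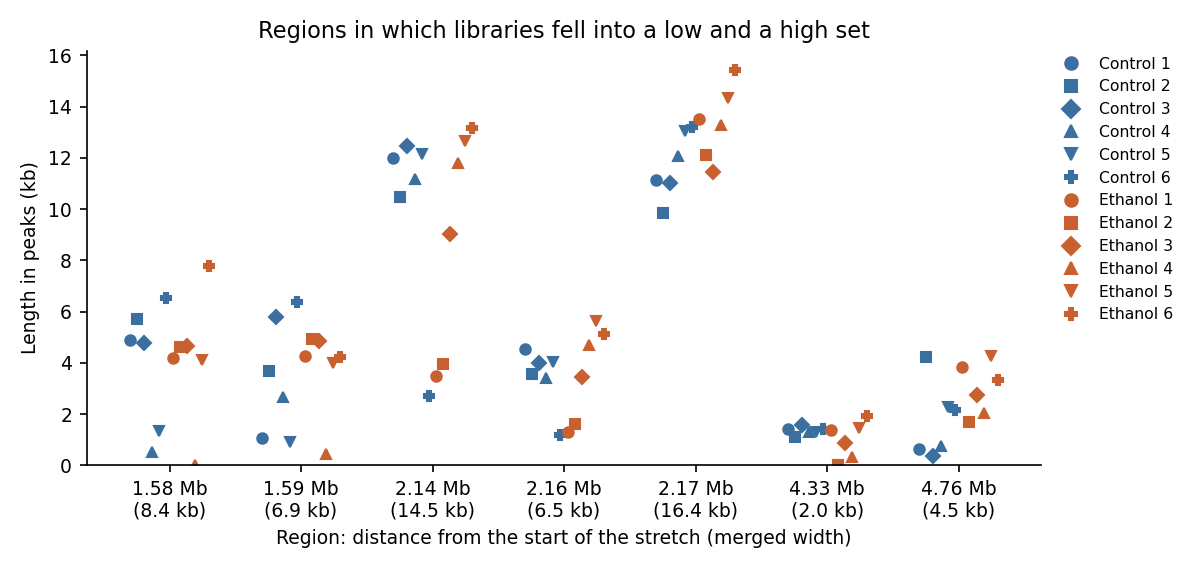
Length in peaks (kb) of each of 12 libraries in the 6 regions with a gap of at least 2-fold between a low and a high set, and in the even region at 2.17 Mb, each at its distance from the start of the stretch (Mb) with its merged width. Control 6, Ethanol 1 and Ethanol 2 are low at 2.14 and 2.16 Mb but not at 2.17 Mb.

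By bins of 100 kb the order was another one. Within-group SDs were largest from 3.0 to 3.1 Mb (0.95), between 973 bp in Ethanol 4 and 8899 bp in Control 6. Next came the bins from 2.9 to 3.0 Mb (0.80) and from 2.5 to 2.6 Mb (0.67), and the latter holds 2 of the regions with a gap. The bin from 3.1 to 3.2 Mb, which holds the pair at 3144099–3158580 and 3158761–3165212, had an SD of 0.34. The median over the 36 bins with at least 2 kb in peaks was 0.27, beside 0.33 for the rest of the chromosome. Bin values were first centred on each library's median over the bins of chromosome 20, so each SD also holds the variation of that median. From 40.9 to 41.0 Mb, Control libraries had 1963 to 2128 bp and still an SD of 0.33. SDs of this size, such as these medians and the 0.34, therefore cannot be read as variation between animals in the bins. Ethanol 4 had the narrowest peaks of the 12 libraries over the stretch, with a median of 1203 bp, and its part in these values was not tested.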

How the data were processed

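Amygdala tissue was assayed by ATAC-seq with a Nextera kit and paired-end sequencing. The authors deposited 1 peak list per library, with positions and a score that served here for ranking alone, since no source used here explains it. The submitters' processing notes name BWA, MACS2 2.1.1, bedtools 2.27.1 and the build Rnor_6.0, with no role or order. Treatment of duplicates, of reads with several matches and of the transposase offset is not given in the sources used here. Read depth, which can raise the number and width of peaks, is unknown.

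Groups came from the labels, which name no batch. Peaks were merged at a minimum overlap of 1 bp, and length in peaks is the sum of peak widths. Group means were compared over all 924 assignments of the libraries (two-sided exact permutation, smallest p 0.00216), and paired values by exact sign-flips. Detection was tested by Fisher's exact test in regions of at least 2 libraries, and log2 length, centred on each library's median, with limma 3.58.1 (R 4.3.3) in regions of all 12, both adjusted by Benjamini-Hochberg over the genome. Bins were described on log2(bp + 100), centred on each library's median over the bins of chromosome 20. Scripts were tested on simulated data. Named regions were the extremes of width, length, spread and p, 3 of each, and those in the study's annotation. The members and gene lists were chosen with earlier results of these data known. Of the 37 placed symbols, 35 matched RefSeq (GRCr8), and 26 of 34 neighbouring pairs are neighbours there too. Cell type markers were not checked here. The alternatives were the better scored 50% of peaks, 50370 peaks per library, other bounds, no centring or division, quantile normalization, coverage of at least 50%, a replicate block and leaving out each library.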

Additional observations from a re-analysis of the deposited data

Results flagged for a closer look

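Values were examined in 56 groups of 6 libraries for a library far from the other 5 of its group, and 6 were found. A rate of 5% of groups would give about 2.8. That rate does not apply here, because the groups included regions named for their spread, p or gap in these same values. Ethanol 5 had 60.4 peaks per Mb in the stretch, the nearest Ethanol library 70.4. Ethanol 5 also had the shortest list of all, at 50370 peaks. In the region 2593177–2600037, Ethanol 4 had 444 bp in peaks and the nearest Ethanol library 4012 bp. Control 6 had 2703 bp in 3144099–3158580, beside 10455 bp in the nearest Control library, and 1175 bp in 3158761–3165212, beside 3417 bp. Ethanol 1 and 2 were as low in both regions, with 3505 and 3945 bp and with 1303 and 1616 bp. Control 4 had 1012 bp in 4886877–4888246, beside 1195 bp in the nearest Control library. Ethanol 6 had 4553 bp in 5431021–5435737, beside 1984 bp, and it was the library with the most covered length in all, at 134.6 Mb.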

How the results depend on the processing

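In density, length in peaks, width and support, the comparisons of the stretch with the rest kept direction and p under 0.05 under every alternative. For support, the libraries are not independent in that test, as described above. The comparisons of Ethanol with Control kept 0 adjusted calls in windows, detection and width. For detection, that 0 was close to fixed by the number of libraries. With the better scored 50% of peaks, the difference in width deviation reversed to 0.0064, the count of regions with an unadjusted limma p under 0.05 fell to 1, and the difference at 4629993–4634621 reversed to 0.062. With the same number of peaks per library, the 2 to 3 Mb window reversed to -30.2 bp per Mb. Without centring, the difference in width deviation was -0.0182 (exact sign-flip p = 0.0566). Without division by the library total, the Ethanol minus Control difference reversed to 30640 bp for the stretch, to 6.83 peaks, and to 3815, 6869 and 13691 bp for the windows from 3 to 6 Mb. With at least 50% of a region covered, 2 regions had an unadjusted Fisher's exact p under 0.05. Leaving out each library gave -0.0203 to -0.0124 for width deviation, -0.331 to 0.0564 peaks per 1000, -23.0 to 70.3 bp for median peak width, 1 to 7 and 0 to 2 regions at an unadjusted p under 0.05 by limma and by Fisher's exact test, and -6.95 to 51.8 bp per Mb for the 2 to 3 Mb window. Outside these ranges, 53 of 59 values of the comparisons and call counts were unchanged under the other alternatives, as were 67 of 77 values of single windows and regions. Unchanged meant the same direction and side of the threshold, or, for counts and SDs, a value close to the main one. The cause of the changes was not tested. Whether replicate numbers pair the samples could not be settled from these values. Same-numbered libraries correlated at -0.0722 to 0.214, with a mean of 0.0484 beside -0.0096 for libraries of other numbers. The correlation was over 0.1 in 2 of 6 pairs, and 3 of 6 correlated best with their own number. A replicate block left the difference of the stretch at -417 bp per Mb (exact sign-flip p = 0.375) and gave 4 regions at an unadjusted limma p under 0.05 and 0 after adjustment. With no read counts, regions without a peak cannot be called closed, and a shallow library cannot be told apart from a less open one.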

Other observations

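Peaks of the stretch ranked higher by the authors' score than those of the rest of chromosome 20. The median peak of the stretch stood at the 52.2 to 61.5 percentile of its library's scores, and the median peak of the rest at the 45.6 to 51.6 percentile, the stretch being higher in each of the 12 libraries. The score takes few distinct values and its meaning is not given in the sources used here.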
